A study of Mus musculus with 6 samples.

Results

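Wnt pathway transcripts were measured in primary cells of the retinal pigment epithelium (RPE), which lies behind the photoreceptors, from mice with proliferative vitreoretinopathy (PVR) and from normal mice. In PVR, scar-like membranes form on the retina after injury or detachment and pull on it. The genes were taken by symbol from a list of 50 Wnt ligands, receptors, antagonists and targets, and all 50 were present among the 28043 gene names of the tables. There were 3 PVR and 3 Normal libraries of polyadenylated RNA, with no strain, age, genotype or time after injury in the sample descriptions, and nothing there says that the replicates were separate animals. The spread behind each p-value is therefore that among libraries and could be technical.

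Wnt ligands are secreted lipid-modified glycoproteins that bind Frizzled receptors. With the co-receptors Lrp5 and Lrp6 they stabilise beta-catenin, which acts with TCF and LEF factors on target genes, whereas with Ror or Ryk receptors they act on cell polarity and calcium without beta-catenin. Secreted antagonists, Axin proteins and the ubiquitin ligases Znrf3 and Rnf43 hold the pathway in check, and beta-catenin signalling is required to form the RPE in the mouse embryo.

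Genes of most roles in the pathway differed between the groups. Fzd8, Sfrp1, Sfrp5 and Axin2 were lower in PVR, with levels between 0.302 and 0.514 times those in Normal, whereas Fzd5, Fzd6, Ror1 and Sfrp2 were higher, between 1.62 and 4.72 times. Values are normalised read counts per gene. Log2 changes are differences of group means of log2(normalised count + 1), with PVR minus Normal, so those of genes with few reads come out too small. Of the 50 genes, 34 passed the filter on low counts and were tested, and 15 of these were called by limma at a Benjamini-Hochberg adjusted p under 0.05 over all 15766 genes tested. Of the 15, 9 were higher and 6 lower in PVR (44.1% of 34 in all, 26.5% higher and 17.6% lower). Across all genes tested 30.8% were called, 17.9% higher and 12.9% lower. Of the genes named above, the Axin2 call was lost in 5 of 17 alternative settings, and the other calls held in all 17. edgeR called 13 of the 34 (29.8% of all genes tested), and DESeq2 called 16 (30.6%). The median log2 change was 0.11 over the 34 genes and -0.02 over all genes tested. The PVR and Normal values did not overlap for 19 of the 34, with 11 higher and 8 lower, against 48.0% of all genes tested (24.7% higher and 23.3% lower).

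**Figure D1:**
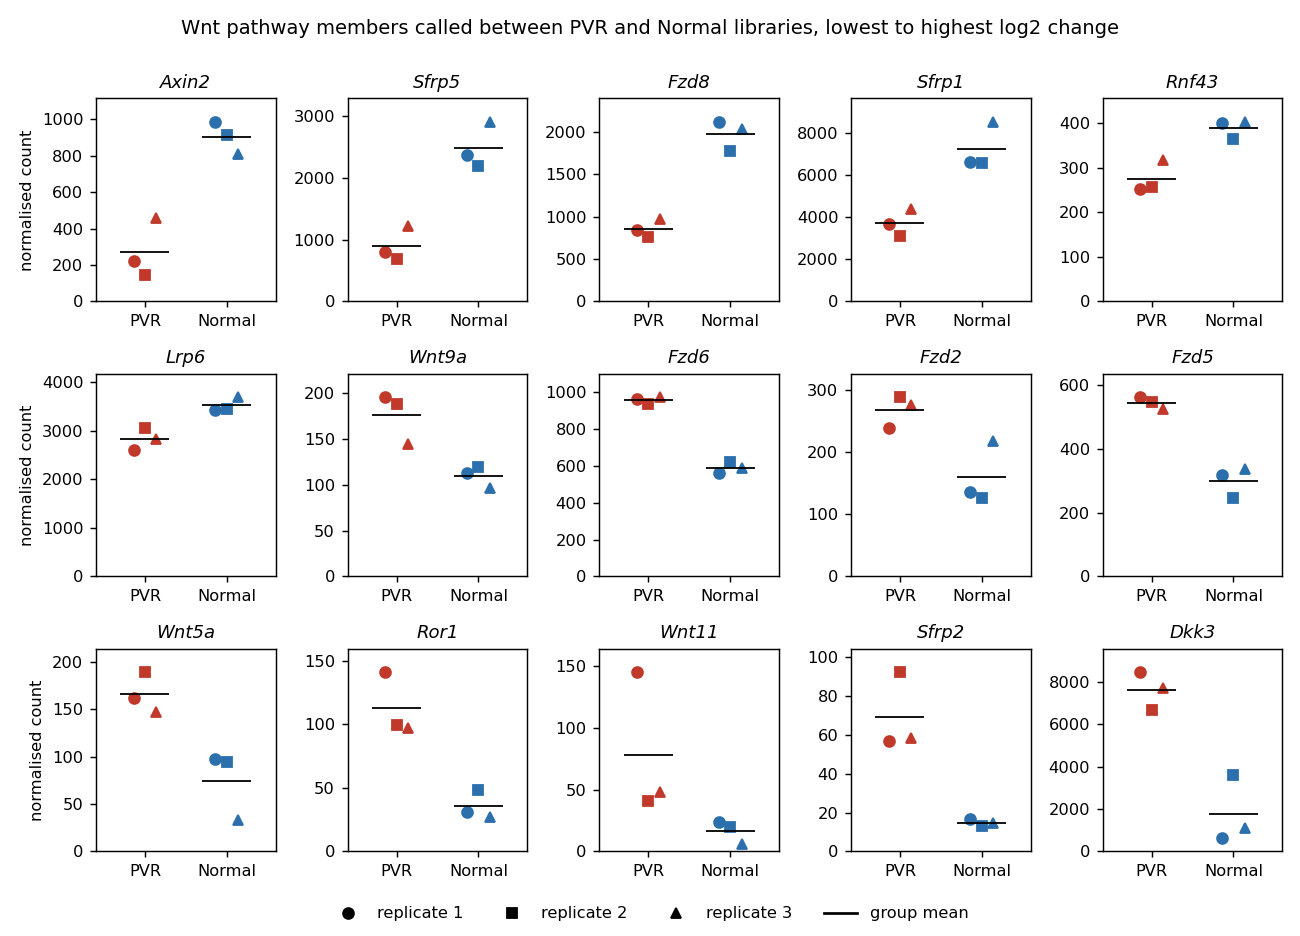
Normalised count (vertical axes, starting at 0) of the 15 called genes in the 3 PVR libraries (red) and the 3 Normal libraries (blue), with marker shape for the replicate number and a line at the group mean. From Axin2 at the top left to Dkk3 at the bottom right the log2 change goes from -1.89 to 2.48, and PVR and Normal points do not overlap in any panel.

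Depth was between 15269983 and 19173187 reads per library, and a gene with no read could lie as high as 2.72 to 3.42 normalised counts (3 reads, counting error only). RPE markers were abundant in every library: of 11 in the tables, 10 had at least 900 normalised counts in each, and Best1 was low throughout, between 7.56 and 22.8. Of these 11 markers 8 were lower in PVR and 0 were higher, with a median log2 change of -0.82 and a range of -1.46 to 0.54. Of 19 macrophage and microglia markers 18 were higher and 1, Csf1r, was lower (log2 change -0.44), with a median log2 change of 4.19. Their summed level was 66465, 91583 and 37301 in PVR replicates 1 to 3 and between 10824 and 12240 in the Normal libraries. Most of each Normal sum was Csf1r (9343 to 11181 normalised counts), so the sums understate the rise of the other 18. Of 13 fibroblast markers 10 were higher and 1, Fap, was lower (log2 change -0.75). Their summed level was 22644 to 32122 in PVR libraries and 9763 to 14464 in Normal libraries, of which Fap held 6430 to 6951. Of these markers 0 were at 0 in all libraries. Their part in the results that follow was not tested. In bulk RNA, fewer cells of a type and less RNA per cell cannot be told apart.

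Normal replicate 2 stood apart. It held 1550 normalised counts of the keratin gene Krt5 and 1333 of Krt15, which mark surface epithelia of the eye, whereas Normal replicates 1 and 3 held between 0 and 2.72 of either and the PVR libraries between 0 and 38.7. In Normal replicate 2, 7 of the 36 Wnt genes with at least 20 normalised counts there were at least 3 times as high as in both other Normal libraries (19.4%), as were 296 of 13668 of all genes (2.17%). These 7 were Wnt4, Ror2, Tspan12, Dkk3, Notum, Lgr5 and Lef1, singled out after their values were seen. Notum, which encodes an enzyme that removes the lipid from Wnt proteins, had 3.09, 3.42 and 2.83 in PVR and 0, 51.9 and 0.906 in Normal replicates 1 to 3. Lgr5, an R-spondin receptor gene and a stem cell marker in several epithelia, had 2.06, 7.97 and 3.78 in PVR and 0, 29.6 and 0 in Normal. Tspan12 encodes a partner of the norrin receptor in retinal vessels, and had 6.18, 10.3 and 3.78 in PVR and 4.12, 27.8 and 1.81 in Normal. For these genes the Normal level was set by this 1 library, and the part of other cells in it was not tested.

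**Figure D2:**
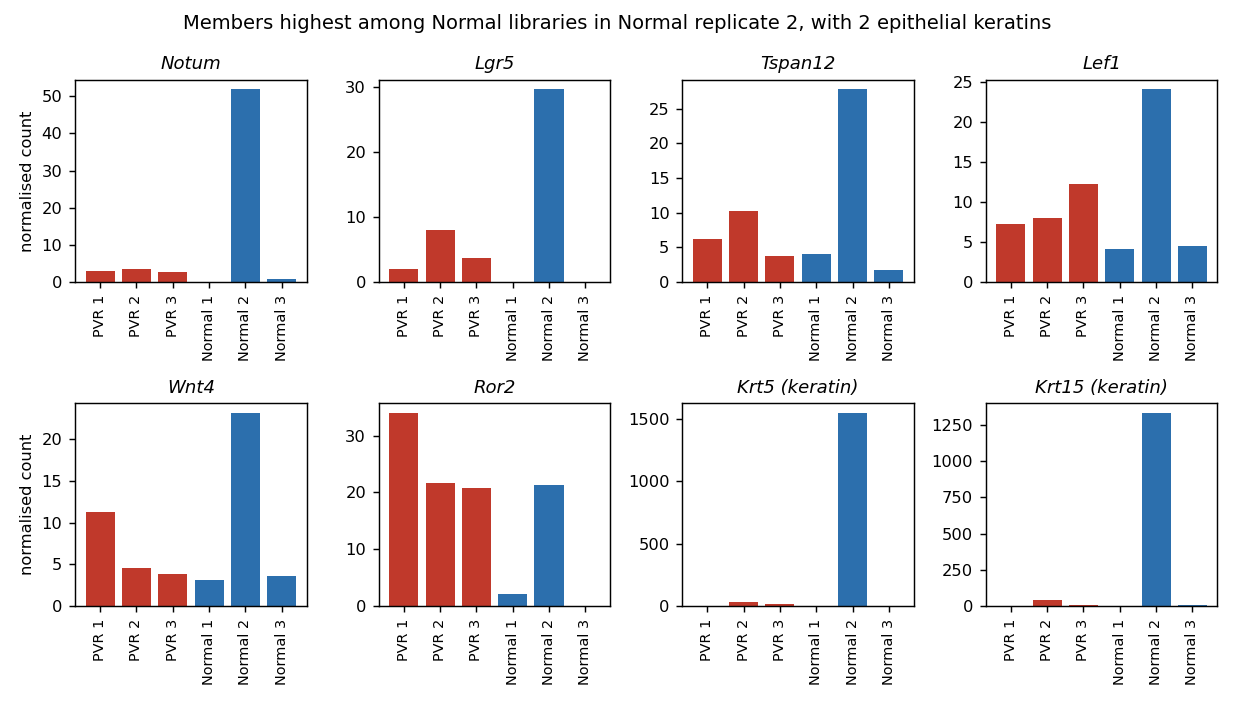
Normalised count (bars, axes starting at 0) of 6 Wnt pathway genes and of the keratin genes Krt5 and Krt15 in PVR replicates 1 to 3 (red) and Normal replicates 1 to 3 (blue). Normal replicate 2 is the highest library for Notum (51.9), Lgr5 (29.6), Tspan12, Lef1 and Wnt4 and for both keratins, and holds 21.3 of Ror2 where the other Normal libraries hold 2.06 and 0.

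Among ligands, 3 of the 5 tested rose and 0 fell. Wnt11, a ligand known mainly for signalling without beta-catenin, had 145, 41.0 and 48.2 normalised counts in PVR replicates 1 to 3 and 23.7, 19.4 and 6.34 in Normal replicates 1 to 3 (log2 change 2.12, SE 0.60, limma adjusted p = 0.0287). All 3 PVR libraries exceeded the Normal ones, and PVR replicate 1 was at least 3 times as high as each other PVR library. Wnt5a, the best known ligand of Ror receptors, had 162, 189 and 147 in PVR and 96.9, 94.5 and 32.6 in Normal (log2 change 1.29, SE 0.40, limma adjusted p = 0.0404). The groups did not overlap, and Normal replicate 3 was the lowest library. Wnt9a had 196, 188 and 145 in PVR and 112, 119 and 96.1 in Normal (log2 change 0.68, limma adjusted p = 0.0254), again without overlap. Wnt2b, expressed at the retinal margin in the chick, had 47.2 ± 9.23 in PVR and 63.1 ± 15.0 in Normal (SD, n = 3 each), with overlap, and was not called (limma adjusted p = 0.334). Wnt5b had 65.2 to 68.3 in PVR and 54.6 to 68.0 in Normal, which overlapped (log2 change 0.10, SE 0.23, not called).

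Per kilobase of annotated exon, Wnt9a was the highest ligand in each group, at 52.9 ± 8.28 normalised counts per kb in PVR and 32.8 ± 3.60 in Normal (SD, n = 3 each). Wnt5b came next by mean in both groups (25.2 and 23.5). Wnt5a (21.2), Wnt11 (18.9) and Wnt2b (11.2) followed by mean in PVR. There the range of Wnt11 overlapped those of Wnt5b, Wnt5a and Wnt2b, and in PVR replicate 1 Wnt11 (35.1) stood above Wnt5b (25.2). In Normal the order was Wnt2b (15.0), Wnt5a (9.54) and Wnt11 (3.99), with overlap between neighbours. The 12 ligand genes, norrin included, summed to 161, 136 and 112 per kb in PVR replicates 1 to 3 and 90.3, 109 and 75.8 in Normal replicates 1 to 3. The remaining 7 (Wnt2, Wnt3, Wnt4, Wnt6, Wnt7b, Wnt10a and Ndp, the gene for the Frizzled-4 ligand norrin) were too low to be tested, with at most 11.3 normalised counts in any PVR library and at most 23.2 in any Normal library.

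Each of these 3 calls was lost when some single library was left out. The Wnt5a call was lost without any 1 PVR library (limma adjusted p 0.078 to 0.129) and missed the threshold by edgeR (adjusted p = 0.0504) and under scaling to library totals (limma adjusted p = 0.0582). That of Wnt11 was lost without PVR replicate 1 (0.0771) or Normal replicate 3 (0.0723), and that of Wnt9a without PVR replicate 1 (0.0833) or 2 (0.0798) or Normal replicate 1 (0.0621) or 3 (0.0854).

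Frizzled receptors differed in both directions. Of 8 tested, Fzd2, Fzd5 and Fzd6 rose, Fzd8 fell and 4 were not called. Fzd8, a receptor of the beta-catenin branch, had 839, 755 and 972 normalised counts in PVR and 2118, 1779 and 2037 in Normal (log2 change -1.21, SE 0.12, limma adjusted p = 0.000154). Every PVR library was below every Normal one, and the PVR mean was 0.432 times the Normal mean. Fzd5, a receptor needed for eye development in the frog (chromosome 1, 64730558 to 64737751 on GRCm38), had 562, 547 and 524 in PVR and 318, 245 and 336 in Normal (log2 change 0.87, SE 0.14, limma adjusted p = 0.00157). Fzd6, known for tissue polarity in mouse skin (chromosome 15, 39006034 to 39038188), had 963, 934 and 975 in PVR and 563, 621 and 587 in Normal (log2 change 0.70, SE 0.10, limma adjusted p = 0.000771). These 3 calls held in all 17 alternative settings tried. The groups were also apart for Fzd2, which had 239.9, 289 and 277 in PVR and 136, 127 and 218 in Normal (log2 change 0.78, limma adjusted p = 0.0211). The Fzd2 call was lost without PVR replicate 2 (0.0689) or 3 (0.0503) or Normal replicate 1 (0.0821) or 2 (0.0645).

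Fzd4, the receptor of norrin, led the family per length in every library, at 1233 ± 45.6 normalised counts per kb in PVR and 1124 ± 102 in Normal (SD, n = 3 each). It made up 51.1 to 55.0% of the summed Frizzled level per kb in PVR libraries and 49.6 to 51.4% in Normal libraries. Fzd7 ranked next in both groups (443 and 424 per kb). Fzd8 followed in Normal at 331 ± 29.6 per kb, but in PVR it stood at 143 ± 18.3, behind Fzd6 at 199 ± 4.35, and in each group the ranges of Fzd8 and Fzd6 did not overlap. The share of Fzd8 in the summed level was 5.43 to 6.97% in PVR libraries and 14.5 to 15.5% in Normal libraries. The 9 Frizzled genes together gave 2258, 2329 and 2333 per kb in PVR replicates 1 to 3 and 2289, 2035 and 2345 in Normal replicates 1 to 3, which overlapped. Fzd5 and Fzd2 were neighbours with overlapping ranges in each group, as were Fzd6 and Fzd1 in Normal. Log2 changes of the members not called were 0.16 for Fzd3 (SE 0.18), 0.14 for Fzd4 (SE 0.11), 0.06 for Fzd7 (SE 0.11) and -0.07 for Fzd1 (SE 0.15), and a miss of the threshold does not show equal levels. Fzd9 was too low to be tested, with 8.24, 25.1 and 10.4 normalised counts in PVR and 6.18, 3.70 and 7.25 in Normal.

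**Figure D3:**
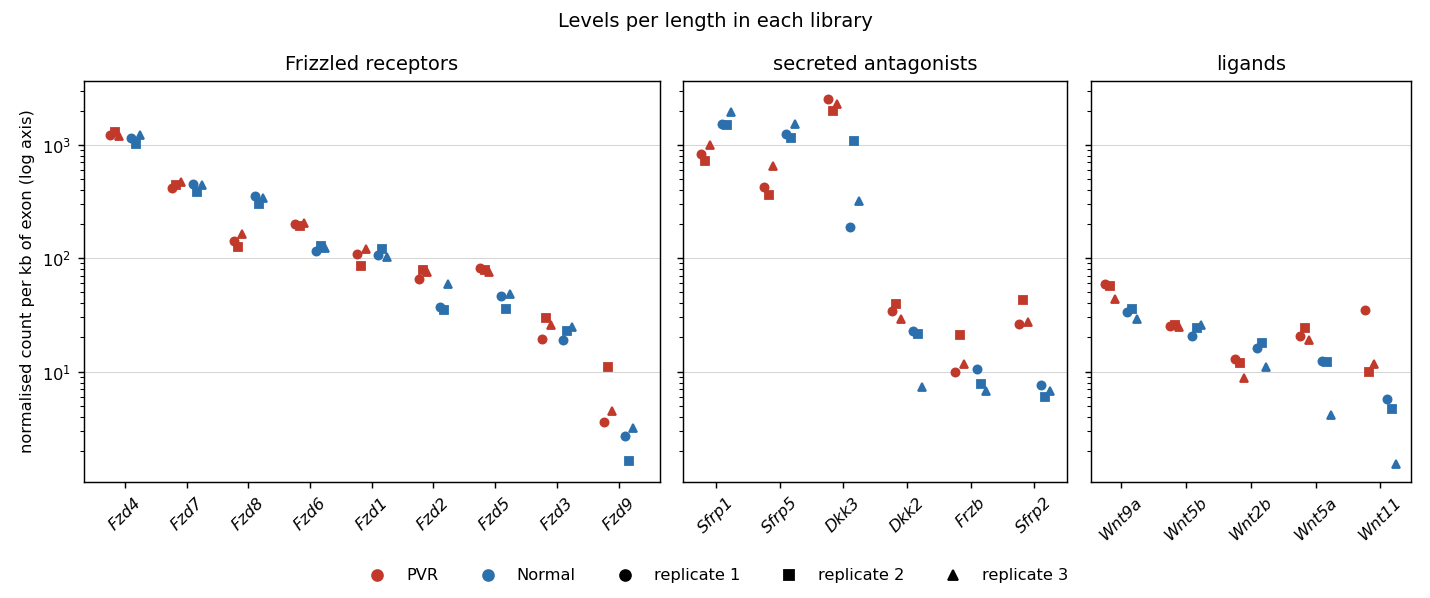
Normalised count per kb of exon (log axis) of Frizzled genes, secreted antagonists and the 5 ligands tested, in each PVR library (red, left of each pair) and Normal library (blue). Fzd8 drops below Fzd6 in PVR, Dkk3 stands above Sfrp1 in all 3 PVR libraries and below it in all 3 Normal ones, and Fzd4 is the highest Frizzled in every library.

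Among co-receptors, Ror1 rose and Lrp6 fell. Ror1, a Wnt5a receptor (chromosome 4, 100095791 to 100444765), had 141, 99.1 and 97.3 normalised counts in PVR and 30.9, 48.2 and 27.2 in Normal (log2 change 1.66, SE 0.30, limma adjusted p = 0.00252). The groups were well apart, with a PVR mean 3.18 times the Normal mean, and the call held in all 17 alternative settings. Its relative Ror2 had 34.0, 21.6 and 20.8 in PVR and 2.06, 21.3 and 0 in Normal (limma adjusted p = 0.0856). Normal replicate 2 alone reached the PVR range, and Ror2 was called higher without that library (0.00202) and with the replicate number as a block (0.0461). Lrp6 had 2612, 3055 and 2840 in PVR and 3433, 3452 and 3703 in Normal (log2 change -0.32, SE 0.10, limma adjusted p = 0.0393). The Lrp6 call was lost without PVR replicate 1 (0.128) or 3 (0.0691) or any 1 Normal library (0.0755 to 0.111). Lrp5, the co-receptor of norrin signalling, had 1842 ± 98.4 in PVR and 1762 ± 157 in Normal, and Ryk had 803 ± 30.4 in PVR and 773 ± 49.9 in Normal (SD, n = 3 each). Neither was called (limma adjusted p 0.673 and 0.716). Per kb of exon Lrp6, Lrp5 and Ryk had 207, 189 and 177 in PVR with overlapping neighbours, and 258, 181 and 170.5 in Normal, where Lrp6 was apart from Lrp5. Ror1 was lower in each group, at 19.5 per kb in PVR and 6.15 in Normal.

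Secreted antagonists of the gene list went in opposite directions: Dkk3 and Sfrp2 rose and Sfrp1 and Sfrp5 fell, of 6 tested. Secreted Frizzled-related proteins carry a Frizzled-like domain that binds Wnt proteins. Sfrp5 (chromosome 19, 42197971 to 42202252), had 801, 679 and 1227 normalised counts in PVR and 2372, 2193 and 2909 in Normal (log2 change -1.50, SE 0.22, limma adjusted p = 0.00175). Sfrp1 (chromosome 8, 23411502 to 23449632), had 3657, 3112 and 4368 in PVR and 6601, 6573 and 8509 in Normal (log2 change -0.96, SE 0.15, limma adjusted p = 0.00126). For both genes the groups were apart, and replicate 3 was the highest library of its group. Sfrp2, a family member common in mesenchyme, had 56.6, 92.3 and 58.6 in PVR and 16.5, 13.0 and 14.5 in Normal (log2 change 2.13, SE 0.33, limma adjusted p = 0.0011). The lowest PVR library was above the highest Normal one, and the 3 Sfrp calls held in all 17 alternative settings. Frzb had 46.0 ± 19.6 in PVR and 26.9 ± 6.35 in Normal (SD, n = 3 each), which overlapped (limma adjusted p = 0.182).

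Of the Sfrp family the gene list held 4 members (Sfrp1, Sfrp2, Sfrp5 and Frzb). Per kb these summed to 1294, 1133 and 1684 in PVR replicates 1 to 3. In Normal replicates 1 to 3 the sums were 2776, 2671 and 3491. Sfrp1 and Sfrp5 made up nearly all of each sum. They had 849 ± 144 and 475 ± 151 per kb in PVR and 1653 ± 254 and 1311 ± 196 in Normal (SD, n = 3 each). Their ranges were apart in PVR and overlapped in Normal. Sfrp2 reached 32.1 per kb in PVR and 6.81 in Normal, so the listed gene that rose was far below the 2 that fell. Sfrp4, a family member outside the list, also rose, with 12.7 per kb in PVR and 2.16 in Normal. The fibroblast markers that rose in the same libraries are given above, and their part in the Sfrp2 level was not tested. The RPE markers had a median log2 change of -0.82 and a lowest one of -1.46, beside -1.50 for Sfrp5 and -0.96 for Sfrp1, and a difference between these values was not tested.

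Dkk3, a divergent Dickkopf relative that is also a Müller glia marker, had 8452, 6661 and 7674 normalised counts in PVR and 633, 3597 and 1082 in Normal (log2 change 2.48, SE 0.65, limma adjusted p = 0.0382). Among the secreted antagonists of the gene list, Dkk3 was the highest in PVR, ahead of Sfrp1, at 2261 ± 267 per kb. In Normal it stood at 527 ± 476, behind Sfrp1 and Sfrp5 (SD, n = 3 each). Sostdc1, an antagonist of Wnt and BMP signalling outside the list, had 484.9 per kb in PVR and 2451.5 in Normal. Of 10 Müller glia and astrocyte markers tested, 3 were higher, Dkk3 included, 1 was lower (Rlbp1, also an RPE marker) and 6 were not called. Glul was among those not called (log2 change -0.09). The part of Müller glia in the Dkk3 level was not tested. The Dkk3 call was lost by edgeR (adjusted p = 0.0827), with the replicate number as a block (limma adjusted p = 0.0979), with no filter (0.11), under scaling to library totals (0.0672) and without any 1 library other than Normal replicate 2 (0.063 to 0.157). Without Normal replicate 2, the Normal library with the most Dkk3, the log2 change was 3.19 (limma adjusted p = 4.6e-05). Dkk2, which binds Lrp6, had 128, 146 and 108 in PVR and 84.5, 78.7 and 27.2 in Normal, without overlap. It missed the threshold (log2 change 1.14, limma adjusted p = 0.067) and passed with the replicate number as a block (0.0154), by DESeq2 (0.0395) and without Normal replicate 2 (0.0458). Dkk1, the classical Lrp6 inhibitor, and Wif1, a Wnt-binding protein gene, had at most 5.67 normalised counts in any library and were not tested.

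**Figure D4:**
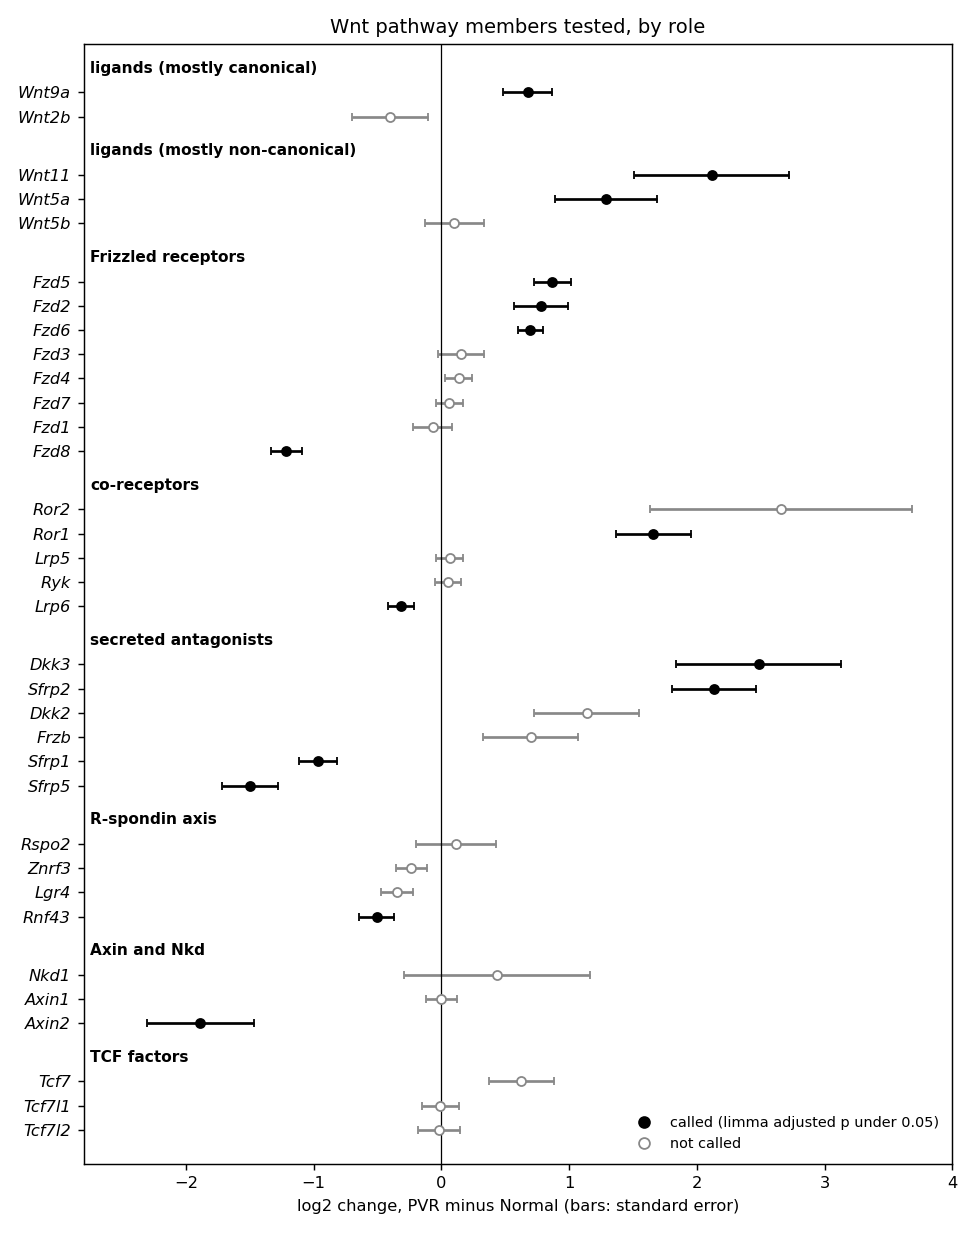
Log2 change, PVR minus Normal (horizontal axis), with its standard error for the 34 genes tested, grouped by role, with filled points for those called by limma at an adjusted p under 0.05. Axin2 (-1.89), Sfrp5 (-1.50) and Fzd8 (-1.21) lie farthest to the left among called genes, Dkk3 (2.48), Sfrp2 (2.13) and Wnt11 (2.12) farthest to the right, and Ror2 has the widest error bar.

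In the R-spondin branch, receptors and ligases set how much Frizzled stays at the cell surface. Of the 4 genes of this branch tested from the gene list, 1 fell and 0 rose. Lgr6, an R-spondin receptor gene outside the list, rose (log2 change 4.48, limma adjusted p = 0.00108). Rnf43, a ligase that removes Frizzled and is itself a beta-catenin target in gut, had 252, 257 and 316 normalised counts in PVR and 399.9, 365 and 403 in Normal (log2 change -0.50, SE 0.14, limma adjusted p = 0.0199). The groups were apart, and the call was lost without PVR replicate 1 (0.0593) or 2 (0.0599) or Normal replicate 1 (0.0711) or 3 (0.0699). Its relative Znrf3 had 309.8 to 332 in PVR and 351 to 392.4 in Normal, also apart but not called (log2 change -0.23, limma adjusted p = 0.167). The receptor gene Lgr4 had 1335, 1034 and 1122 in PVR and 1336, 1465 and 1636 in Normal, with PVR replicate 1 just under the lowest Normal library (limma adjusted p = 0.0616). It passed without PVR replicate 1 (0.0289) and under scaling to library totals (0.0196). Rspo2 was the only R-spondin with enough reads to test, at 62.0 ± 18.0 in PVR and 56.3 ± 13.1 in Normal (SD, n = 3 each), and was not called (limma adjusted p = 0.814). Rspo1 had at most 6.18 and Rspo3 at most 11.4 normalised counts in any library.

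Axin2, the feedback scaffold widely read as a reporter of beta-catenin signalling (chromosome 11, 108920349 to 108950783), fell most of all called genes of the list. It had 221, 142 and 455 normalised counts in PVR and 986, 915 and 811 in Normal (log2 change -1.89, SE 0.42, limma adjusted p = 0.0202). The groups were well apart, with a PVR mean 0.302 times the Normal mean, and PVR replicate 3 had about 2 to 3 times the level of the other PVR libraries. The direction was the same in all 17 alternative settings, with log2 changes between -2.41 and -1.50, but the call was lost with no filter (0.0686) and without PVR replicate 1 (0.0894) or any 1 Normal library (0.0502 to 0.0614). Its paralog Axin1, the scaffold present without signalling, had 819, 614 and 707 in PVR and 711, 694 and 719 in Normal and was not called (log2 change 0.00, SE 0.12). Per kb, Axin2 had 49.6 in PVR and 164 in Normal, and Axin1 had 186 in PVR and 185 in Normal. Nkd1, a feedback inhibitor that binds Dishevelled, was near the floor, with 3.42 to 13.4 in PVR and 2.06 to 13.9 in Normal.

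Of the 3 TCF factors tested 0 were called by limma, edgeR or DESeq2, and 1 (Tcf7, unadjusted p = 0.0337) was under 0.05 by limma before adjustment. Tcf7 had 63.8, 60.4 and 65.2 normalised counts in PVR and 36.1, 46.3 and 39.9 in Normal, without overlap (log2 change 0.63, SE 0.25, limma adjusted p = 0.09). Tcf7l1, which acts mostly as a repressor, had 249.6 ± 32.7 in PVR and 249.4 ± 9.86 in Normal. Tcf7l2 had 344 ± 47.7 in PVR and 349 ± 54.1 in Normal (SD, n = 3 each). Lef1, a factor that is often a target of the pathway, had 7.21, 7.97 and 12.3 in PVR and 4.12, 24.1 and 4.53 in Normal and was not tested.

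Promoters are shown for Axin2 and Sfrp5, the called genes with the largest falls, and for Wnt11 and Ror1. The last 2 are those, of the 8 called genes with a promoter window, whose windows hold the TCF/LEF core. The sequences are from RefSeq on GRCm38.p6, 250 bases before the annotated start, 5′ to 3′ on the gene's strand. They lie at chr11:108920099-108920348 (Axin2, plus strand), chr19:42202253-42202502 (Sfrp5, minus strand), chr7:98834862-98835111 (Wnt11, plus strand, 1 of 2 starts) and chr4:100095541-100095790 (Ror1, plus strand). Capitals mark CTTTGA or its reverse complement.
Axin2: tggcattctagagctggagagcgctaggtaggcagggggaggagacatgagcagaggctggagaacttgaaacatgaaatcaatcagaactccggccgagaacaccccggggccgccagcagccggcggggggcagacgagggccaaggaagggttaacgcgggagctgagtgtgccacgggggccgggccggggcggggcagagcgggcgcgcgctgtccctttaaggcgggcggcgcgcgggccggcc
Sfrp5: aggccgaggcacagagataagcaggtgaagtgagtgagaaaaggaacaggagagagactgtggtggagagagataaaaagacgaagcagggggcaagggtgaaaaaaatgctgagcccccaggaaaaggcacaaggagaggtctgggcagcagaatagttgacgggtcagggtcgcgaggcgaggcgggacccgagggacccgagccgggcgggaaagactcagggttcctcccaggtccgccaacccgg
Wnt11: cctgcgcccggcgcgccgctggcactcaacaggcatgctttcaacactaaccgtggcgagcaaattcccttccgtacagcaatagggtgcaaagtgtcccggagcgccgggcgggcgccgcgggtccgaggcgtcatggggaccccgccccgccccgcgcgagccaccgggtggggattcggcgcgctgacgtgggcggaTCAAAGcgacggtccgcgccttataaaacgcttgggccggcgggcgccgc
Ror1: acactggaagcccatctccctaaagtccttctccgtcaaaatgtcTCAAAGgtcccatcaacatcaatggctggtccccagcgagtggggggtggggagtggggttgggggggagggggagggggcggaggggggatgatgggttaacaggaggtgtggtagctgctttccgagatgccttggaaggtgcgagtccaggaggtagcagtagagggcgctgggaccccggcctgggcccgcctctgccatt
The windows of Axin2 and Sfrp5 hold no match, the Wnt11 window holds 1 that begins 50 bases before the start, and the Ror1 window holds 1 that begins 205 bases before it. Of the 50 genes 33 had a promoter in the table, with 42 windows in all. The called genes Wnt5a, Fzd2, Fzd6, Fzd8, Lrp6, Dkk3 and Sfrp1 had none and were not searched. CTTTGA on either strand was in 7 of these 42 (16.7%) and in 4544 of all 32851 windows (13.8%). The AP-1 motif TGANTCA, which can share the letters TGA with CTTTGA, was in 2 of 42 (4.76%, for Ror2 and Wnt5b) and in 6.75% of all windows. These matches describe letters in a short window and are not binding sites.

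The other genes of the pathway, 110 in 5 lists, moved in both directions. There were 104 of them among the deposited genes and 88 passed the filter. Of these 26 rose and 15 fell (46.6% in all, beside 30.8%, and by direction 17.9% higher and 12.9% lower among all genes tested), with a median log2 change of 0.08. The receptor and antagonist list had 8 higher and 2 lower of 14. Sostdc1, an antagonist of Wnt and BMP signalling, had 705, 605 and 1281 normalised counts in PVR and 4283, 4080 and 4735 in Normal (log2 change -2.41, limma adjusted p = 0.000896). Like Axin2, Sfrp1 and Sfrp5 it was highest in PVR replicate 3 among the PVR libraries. Cthrc1, a secreted Wnt cofactor in the mouse, had 714, 699 and 492 in PVR and 13.4, 36.1 and 30.8 in Normal (log2 change 4.61, limma adjusted p = 7.87e-05). Sfrp4 had 44.3, 82.0 and 33.1 in PVR and 12.4, 8.34 and 6.34 in Normal (log2 change 2.38). The R-spondin receptor gene Lgr6 had 15.4, 58.1 and 20.8 in PVR and 0, 0 and 0.906 in Normal.

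The cytoplasmic and nuclear relay list had 4 higher and 8 lower of 33. Amer1, a membrane scaffold for the destruction complex, had 453, 495 and 755 normalised counts in PVR and 1977, 1664 and 1229 in Normal (log2 change -1.52, limma adjusted p = 0.00245). The co-activator gene Pygo1 had 472 ± 117 in PVR and 794 ± 30.3 in Normal, and the co-repressor gene Tle4 had 1859 ± 99.7 in PVR and 2490.1 ± 68.0 in Normal (SD, n = 3 each). Dact3, a Dishevelled-binding protein gene, rose (732 ± 4.34 in PVR and 446 ± 51.1 in Normal). The planar polarity and calcium list had 6 higher and 2 lower of 18. Daam1, a formin that binds Dishevelled, had 5660.3, 5595 and 5241 in PVR and 2083, 1809 and 2091 in Normal (log2 change 1.47, SE 0.10, limma adjusted p = 3.05e-05), the smallest adjusted p among the 88. The calcium-dependent kinase gene Camk2d (log2 change 0.61) and the polarity cadherin genes Celsr1 (2.38) and Celsr2 (0.59) also rose. The Celsr1 call was lost without PVR replicate 1 or 2 or Normal replicate 1 or 3 (limma adjusted p 0.054 to 0.0622), and without Normal replicate 2 its log2 change was 3.12 (0.000379). The call was lost for Celsr2 without PVR replicate 2 (0.0553) or Normal replicate 1 (0.0617).

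Genes known as Wnt targets in other tissues did not move one way, with 8 higher and 3 lower of 19 tested. Myc had 725, 289 and 244 normalised counts in PVR and 59.8, 66.7 and 54.4 in Normal (log2 change 2.61, limma adjusted p = 0.00183), and the matricellular gene Ccn4 had 136, 112 and 61.4 in PVR and 18.6, 15.7 and 5.44 in Normal (log2 change 2.94). The cell cycle gene Ccnd1 was lower, with 2763, 3314 and 2562 in PVR and 4728, 4908 and 5303 in Normal (log2 change -0.80, limma adjusted p = 0.00097). Most macrophage and fibroblast markers rose in the same PVR libraries, and their part in these values was not tested. Of the ligand and secretion list 0 of 4 tested were called by limma, edgeR or DESeq2. The cargo receptor gene Tmed5 had an unadjusted p under 0.05 by limma. It passed with the replicate number as a block (limma adjusted p = 0.0465) and without PVR replicate 3 (0.0376). Wnt10b had 22.7, 26.2 and 14.2 in PVR and 7.21, 18.5 and 3.63 in Normal (log2 change 1.24, limma adjusted p = 0.133). It passed without Normal replicate 2 (0.0363) and without both that library and PVR replicate 3 (0.0334). Wls, the carrier that Wnt proteins need for secretion, had 9082, 9083 and 9346 in PVR and 8407, 10240.0 and 11108 in Normal.

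**Figure D5:**
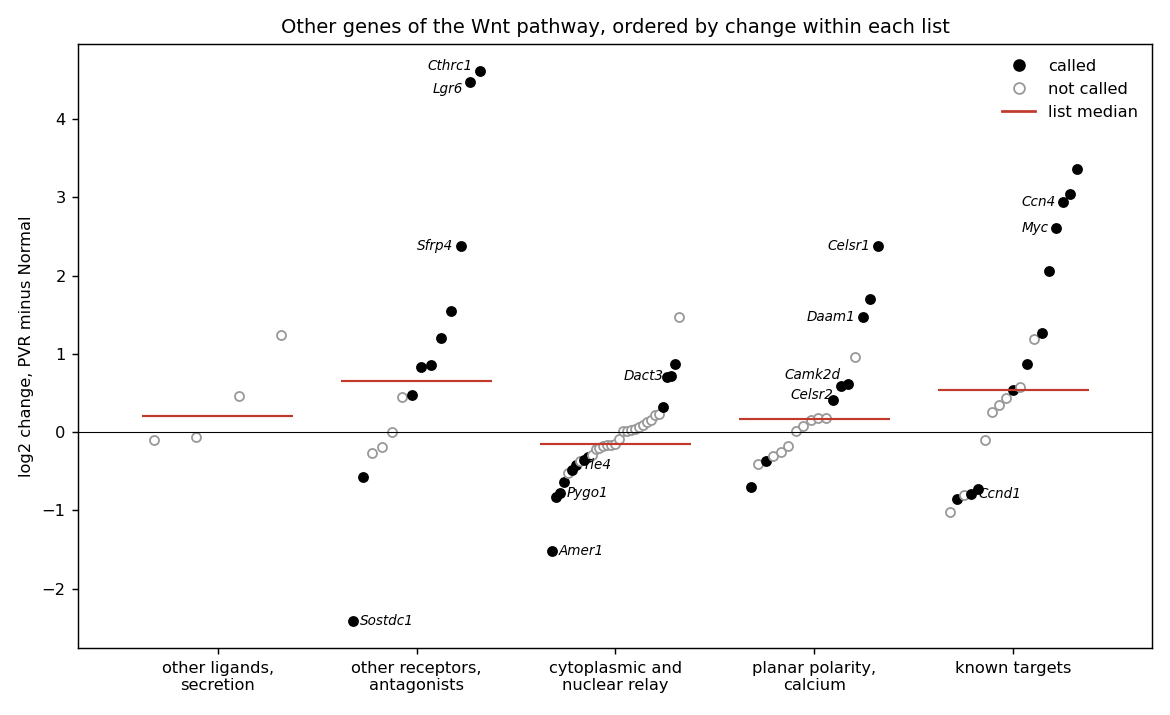
Log2 change, PVR minus Normal (vertical axis), of the 88 other pathway genes tested, in 5 lists and ordered by value within each, with filled points for called genes and a red line at the list median. Cthrc1 (4.61) and Sostdc1 (-2.41) are the extremes, and the relay list is the one with more called genes below 0 (8) than above (4).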

How the data were processed

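Polyadenylated RNA of primary mouse RPE cells was sequenced in 3 PVR and 3 Normal libraries. The authors deposited a normalised signal per gene and library; per the submitters' processing notes mm10 and DESeq2 were used, with no role given, while aligner, counter, annotation and strand setting were not given in the sources used. The deposited values were whole reads divided by 1 factor per library, since 100% came out whole within 0.001 reads. Groups were compared by limma 3.58.1 (in R 4.3.3, with trend and robust options) on log2(normalised count + 1) over 15766 genes kept by edgeR's filter (minimum count 10), with Benjamini-Hochberg adjustment over all of them. edgeR 4.0.16 and DESeq2 1.42.0 on the recovered reads, other scalings, pseudocounts and filters, a replicate block and left-out libraries were alternatives. The limma step was tested on simulated data.

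Same-numbered PVR and Normal libraries deviated together from their group means (correlations of 0.206, 0.195 and 0.179, against -0.14 to -0.07 for other pairs), so the replicate number was also used as a block; the labels give only the number. Exon lengths are merged exons of GENCODE M21 (GRCm38, the same assembly as mm10). Of the 50 genes, 6 share exon bases with a tabled gene on the other strand, whose level was at most 27.8; these are Wnt5a, Fzd5, Fzd6, Notum, Axin2 and Tcf7l1. The genes, lists and markers were chosen with earlier results of these data known. All 50 genes are accounted for. Those called or with a log2 change of at least 1 are given by library. The rest are given by library, group mean, range, highest value or log2 change. From each other list up to 4 genes with the smallest p are named. Of the known targets, 1 gene that this rule names is not reported here.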

Additional observations from a re-analysis of the deposited data

How the results depend on the processing

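The 54 named genes were refitted under 17 alternatives. Of 915 results, 826 kept their direction and side of the threshold, 52 lost the call, 12 gained it and 25 changed sign. The calls of Fzd5, Fzd6, Fzd8, Ror1, Sfrp1, Sfrp2 and Sfrp5 held in all 17. With 1 library left out, 5 to 10 of the 50 genes were called higher and 3 to 5 lower. Of the other pathway genes 17 to 28 were higher and 7 to 14 lower. Of all genes 2193 to 2844 were higher and 1307 to 2026 lower, beside 2825 and 2033 with no library left out. With the replicate block 10 of the 50 were higher and 6 lower (3079 and 2249 of all genes). By edgeR the counts were 7 and 6 (2762 and 1944 of all genes), and by DESeq2 10 and 6 (2889 and 1935). Under scaling to library totals, which moved the median of all genes to -0.09, they were 7 and 7 (2538 and 2464). Without both PVR replicate 3 and Normal replicate 2 they were 8 and 5 (2702 and 1566). The block changed the calls of Ror2 (0.0461), Dkk2 (0.0154), Dkk3 (0.0979) and Tmed5 (0.0465), and of no other named gene. Log2 changes near 0 changed sign: Tcf7l1 by DESeq2 (0.0062), Axin1 under TMM (-0.0015), totals (-0.0727) and both libraries left out (-0.0122), Fzd7 under totals (-0.0106) and both left out (-0.0546), Lrp5 (-0.0083) and Ryk (-0.0182) under totals, and Rspo2 with replicates 1 and 2 only (-0.1283). With 1 library left out the ranges were -0.1028 to 0.1045 for Axin1, -0.1793 to 0.0784 for Fzd1, -0.0064 to 0.1137 for Fzd7, -0.1251 to 1.016 for Nkd1, -0.1961 to 0.1283 for Porcn, -0.0251 to 0.3792 for Rspo2, -0.1112 to 0.0551 for Tcf7l1 and -0.1439 to 0.0971 for Tcf7l2. The causes were not tested. Depth limits the 16 genes not tested: with no filter 0 were called by limma, 0 had an unadjusted p under 0.05, and the smallest p was 0.0665.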

Other observations

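Of the 6 genes called lower, PVR replicate 3 was the PVR library nearest the Normal mean for 5 (Fzd8, Sfrp1, Sfrp5, Rnf43 and Axin2), and of the 9 called higher for 4 (Wnt9a, Wnt5a, Fzd5 and Ror1). The share among all called genes was not counted, so these counts cannot be read as a trait of the Wnt genes. Among the PVR libraries, PVR replicate 3 had the highest summed RPE markers (701914, beside 643810.0 and 629139.5 in PVR replicates 1 and 2). It also had the lowest summed macrophage and microglia markers (37301, beside 66465 and 91583) and the lowest summed fibroblast markers (22644, beside 28765 and 32122). All 3 sums were thus the nearest to Normal, though the macrophage and fibroblast sums each include a marker lower in PVR (Csf1r and Fap). The part of these sums in the gene pattern was not tested. Per kb, the 9 secreted antagonists of the gene list summed to 3846, 3158 and 4002 normalised counts in PVR replicates 1 to 3. In Normal replicates 1 to 3 they summed to 2987, 3787 and 3821, which overlapped although 4 of the 6 tested were called. Sostdc1, an antagonist outside this list, was not in the sum. Its group means were 484.9 per kb in PVR and 2451.5 in Normal, so the overlap was shown for the listed genes only.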
